A study of Rattus norvegicus with 24 samples.

Results

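The miR-23, miR-27 and miR-24 clusters were followed in the lungs of rats that inhaled hexanal, a volatile aldehyde. The members were the 5 microRNAs named rno-miR-23a-3p, rno-miR-23b-3p, rno-miR-27a-3p, rno-miR-27b-3p and rno-miR-24-3p in the scanner files, chosen by name out of 719 rat miRNAs on the array. All 5 were among the 283 miRNAs that passed the filter on dim probes, and each was above background on all 24 arrays. The lungs came from 24 rats of the inbred strain Fischer-344, males and females aged 7 to 8 weeks at the start, and RNA of each rat was labelled with Cy3 and read on 1 single-colour Agilent array. The control group breathed filtered clean air and the hexanal exposure groups received 600, 1000 or 1500 ppm for 4 h per day on 5 days per week over 5 weeks. Each group held 6 rats, 3 males and 3 females. The unit ppm is that of the sample titles, whereas the protocol text attached to the samples gives the same 3 numbers in mg per cubic metre, so ppm is used here only as the name of a group.

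A microRNA is a short RNA that guides an Argonaute protein to messenger RNAs, mainly through the seed, the stretch near its 5′ end that pairs with the target, and lowers their output. The miR-23a, miR-27a and miR-24-2 hairpins are cut from 1 primary transcript, and the miR-23b, miR-27b and miR-24-1 hairpins lie together at a second, paralogous locus. The clusters are known for roles in endothelial cells and vessel growth, and miR-27 is known as a regulator of lipid metabolism and of fat cell formation, with Pparg among its described targets.

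The mature sequences are shown because they set what an array can separate, with the seed (bases 2 to 8 from the 5′ end) in capitals. All 5 members were matched by name in the RefSeq table of the rat assembly GRCr8, from which sequences and coordinates were taken.
rno-miR-23a-3p: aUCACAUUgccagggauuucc
rno-miR-23b-3p: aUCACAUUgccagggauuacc
rno-miR-27a-3p: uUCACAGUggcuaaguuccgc
rno-miR-27b-3p: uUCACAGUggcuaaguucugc
rno-miR-24-3p: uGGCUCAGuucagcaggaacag

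The members fell into 3 seed groups. Both miR-23 members carry 1 seed, which no other mature rat miRNA of the 693 in that table carries, and the same held for both miR-27 members and for miR-24-3p. The miR-23 and miR-27 seeds differ from each other by the 1 substitution U7G, counted from the 5′ end with the miR-23 base first. Over its 21 bases, miR-23b-3p differs from miR-23a-3p only by U19A, and miR-27b-3p differs from miR-27a-3p only by C19U, both outside the seed. On the minus strand of chromosome 19, miR-23a-3p lies at chr19:40859778-40859798, miR-27a-3p at chr19:40859614-40859634 and the copy of miR-24-3p from Mir24-2 at chr19:40859481-40859502, which together span 318 bases. On the minus strand of chromosome 17, miR-23b-3p lies at chr17:1819405-1819425, miR-27b-3p at chr17:1819163-1819183 and the copy of miR-24-3p from Mir24-1 at chr17:1818672-1818693, a span of 754 bases. Both copies of miR-24-3p have the same sequence, so its value on the array is the sum of both loci. The probe sequences were not used here, and how far the probe of a miR-23 or miR-27 member also binds its paralog was not tested.

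Marker miRNAs of cell types and of other organs were looked up in the samples. All 5 epithelial miRNAs of the list (miR-200a, miR-200b, miR-200c, miR-141 and miR-429) were above background on 24 of 24 arrays. So were both arms of endothelial miR-126a, and miR-143 and miR-145 of smooth muscle. The brain miRNAs miR-124-3p and miR-9a-5p were above background on 0 arrays, and liver miR-122-5p on 21. After scaling, the intensity of miR-122-5p ran from 11.3 to 64.2, the lowest being at the floor of 11.3 set in processing. Of striated muscle, miR-133b-3p was above background on 24 arrays, miR-133a-3p on 21, miR-1-3p on 18, and miR-206-3p and miR-208a-3p on 0. The arrays lay on 3 slides of 8, and the slides were not balanced over the groups. Slide 1 held 8 males, of which 3 were control, 3 were 600 ppm and 2 were 1000 ppm rats. Slide 2 held the 3 control females, 1 female of the 600 ppm group, 1 male of the 1000 ppm group and the 3 males of the 1500 ppm group. Slide 3 held females only, 2 at 600 ppm, 3 at 1000 ppm and 3 at 1500 ppm. Per array, 221 to 306 miRNAs were above background and no spot was saturated, and the number of arrays limits the precision. Before scaling, the 75th percentile of intensity was 677 to 1226 on slide 1, 662 to 766 on slide 2 and 772 to 1063 on slide 3, and all but 1 array of slide 1 lay above every array of slide 2. This brightness runs with the slide and male differences of the members, and its part in them was not tested.

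Across all rats, no member differed from control at any dose. The level of a member is the mean log2 scaled intensity of its probes, with the 75th percentile of each array set to the same value, and levels of different members are not comparable because each probe has its own brightness. A change in bulk lung RNA can come from fewer cells of a type or from less RNA per cell, and these cannot be told apart.

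The level of miR-27a-3p showed the largest difference from control at 1500 ppm among the members. In control lungs it ran from 11.87 to 12.18 with a median of 12.03. At 600 ppm it ran from 11.99 to 12.21 (median 12.08), at 1000 ppm from 11.86 to 12.14 (median 12.01) and at 1500 ppm from 11.99 to 12.29 (median 12.21). The highest rat was a 1500 ppm male at 12.29. The lowest 1500 ppm male, at 12.20, lay below 1 female of the 1500 ppm group (12.22) and 1 female of the 600 ppm group (12.21). The ranges of the 4 groups overlapped. Relative to control, its log2 difference was 0.15 ± 0.07 (SE, 6 against 6 rats, 95% interval 0.01 to 0.28) at 1500 ppm, a fold of 1.11. This did not pass the threshold of 0.05 (limma, adjusted p = 0.498 over 283 miRNAs). At 600 ppm the difference was 0.06 ± 0.07 and at 1000 ppm -0.02 ± 0.07, with adjusted limma p of 0.996 and 0.991.

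For miR-24-3p, which both clusters encode, the control range was 12.46 to 12.73 with a median of 12.56. The medians were 12.62 at 600 ppm (12.48 to 12.67), 12.57 at 1000 ppm (12.41 to 12.66) and 12.68 at 1500 ppm (12.56 to 12.75). All 4 ranges overlapped. The log2 difference from control at 1500 ppm was 0.09 ± 0.06 (SE, 95% interval -0.03 to 0.22, limma adjusted p = 0.5).

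The miR-23b-3p level spread most among rats of a group. It ran from 12.22 to 12.61 in control lungs (median 12.33), from 12.21 to 12.57 at 600 ppm (median 12.43), from 12.15 to 12.58 at 1000 ppm (median 12.37) and from 12.34 to 12.57 at 1500 ppm (median 12.41). The lowest control values were the 3 males of slide 1, at 12.22, 12.23 and 12.24, and the highest was a female of slide 2. The difference at 1500 ppm was 0.07 ± 0.08 (SE, 95% interval -0.10 to 0.24, limma adjusted p = 0.742). Leaving out 1 array moved it from 0.04 (without control male 3) to 0.12 (without control female 23), with no call.

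Its cluster neighbour miR-27b-3p moved little. The control range was 11.25 to 11.49 (median 11.28), and the medians of the exposure groups were 11.35, 11.30 and 11.35 in order of dose, with ranges of 11.26 to 11.41, 11.21 to 11.48 and 11.28 to 11.45. One control female, at 11.49, stood above the other 5 control rats. The difference from control at 1500 ppm was 0.04 ± 0.05 (SE, 95% interval -0.07 to 0.14, limma adjusted p = 0.748). Leaving out 1 array moved it from 0.02 (without 1500 ppm male 17) to 0.07 (without control female 23), with no call.

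The level of miR-23a-3p ran from 12.99 to 13.13 in control lungs (median 13.09), from 12.97 to 13.31 at 600 ppm (median 13.14), from 12.94 to 13.14 at 1000 ppm (median 13.03) and from 12.95 to 13.09 at 1500 ppm (median 13.05). The groups overlapped, and 1 male of the 600 ppm group was highest. At 1500 ppm the difference was -0.04 ± 0.05 (SE, 95% interval -0.14 to 0.07, limma adjusted p = 0.751).

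**Figure D1:**
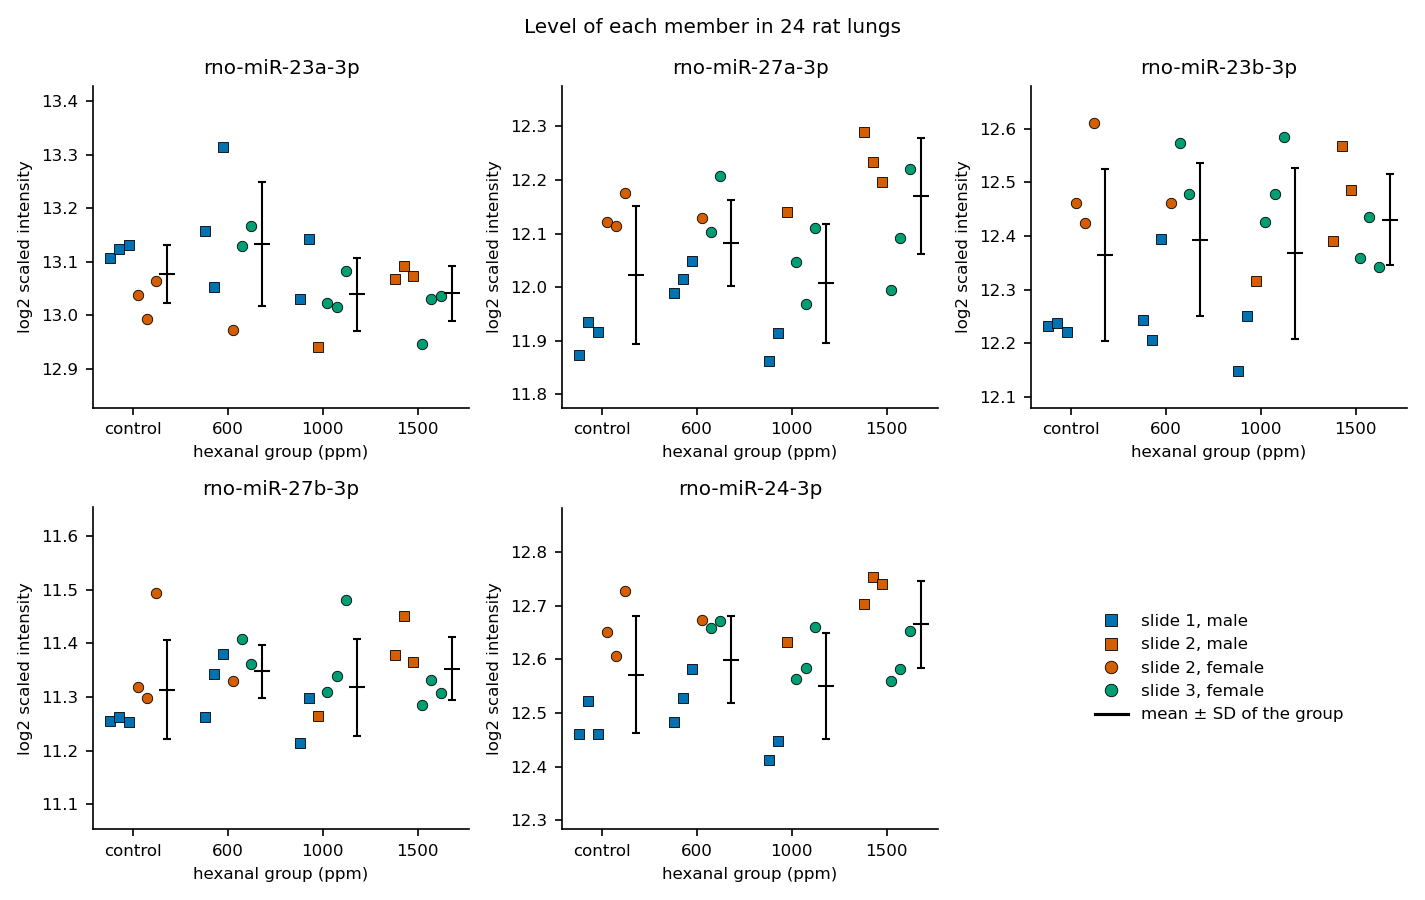
Log2 scaled intensity (vertical axis, a span of equal height in each panel that does not start at 0) of each member in the 4 groups (horizontal axis), 1 point per rat, with colour for the slide, squares for males and circles for females. Bars are the mean ± SD of 6 rats, and within the control group the slide 1 males lie below the slide 2 females for miR-27a-3p, miR-23b-3p, miR-27b-3p and miR-24-3p.

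None of the 5 members passed in any of the dose comparisons over all rats, and neither did any other miRNA. The share of all miRNAs tested that was called was 0% at 600 ppm, 0% at 1000 ppm, 0% at 1500 ppm, 0% for any dose and 0% for the trend with dose. At an unadjusted limma p under 0.05 there were 5, 17, 26, 15 and 29 of the 283 miRNAs in these comparisons, with miR-27a-3p at 1500 ppm the only member among them. The trend with dose was steepest for miR-27a-3p, at 0.08 ± 0.04 (SE) in log2 per 1000 ppm (limma adjusted p = 0.492). The pooled SD within groups was 0.08 for miR-27b-3p, 0.08 for miR-23a-3p, 0.09 for miR-24-3p, 0.11 for miR-27a-3p and 0.14 for miR-23b-3p on the log2 scale, against a median of 0.18 over the 283 miRNAs. With slide as a term in the fit, the difference of miR-27a-3p at 1500 ppm was 0.08 ± 0.04 (SE, 95% interval -0.01 to 0.17, limma adjusted p = 0.535), no member was called and the share of all miRNAs called was 0%.

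In males taken alone, 3 members were higher at 1500 ppm than in control rats, and these were miR-27a-3p, miR-24-3p and miR-23b-3p. The 3 control males had miR-27a-3p levels of 11.87, 11.92 and 11.94, and the 3 males at 1500 ppm had 12.20, 12.23 and 12.29. The groups did not overlap, and the log2 difference was 0.33 ± 0.07 (SE, 3 against 3 rats, fold 1.26, limma adjusted p = 0.00122). For miR-24-3p the control males had 12.46, 12.46 and 12.52 and the 1500 ppm males 12.70, 12.74 and 12.75. This difference was 0.25 ± 0.06 (fold 1.19, limma adjusted p = 0.00188). The levels of miR-23b-3p were 12.22, 12.23 and 12.24 in control males and 12.39, 12.48 and 12.57 at 1500 ppm. Its difference was 0.25 ± 0.07 (fold 1.19, limma adjusted p = 0.00668). No value of a 1500 ppm male lay within the control male range for any of the 3. How many of all miRNAs separated in this way was not counted. The background for the call of 3 of 5 members was 36% of the 283 miRNAs called. For miR-27b-3p the difference was 0.14 ± 0.06 (adjusted p = 0.0666) and for miR-23a-3p -0.04 ± 0.07 (adjusted p = 0.640), neither past the threshold in limma.

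Over all 3 doses within males, the same 3 members passed the F test in limma (adjusted p = 0.00546 for miR-27a-3p, 0.00600 for miR-24-3p and 0.0197 for miR-23b-3p), while 35.3% of all miRNAs did. Within females, no member passed and 0% of all miRNAs did, although 42 of the 283 had an unadjusted limma p under 0.05. At 1500 ppm in females the log2 differences from control ran from -0.12 ± 0.07 (SE) for miR-23b-3p to -0.03 ± 0.07 for miR-23a-3p. The difference between the sexes in response to dose was itself tested. The dose by sex interaction passed in limma for miR-23b-3p (adjusted p = 0.0199), miR-24-3p (0.0228) and miR-27a-3p (0.0426), with 25.1% of all miRNAs called. The call of miR-27a-3p was lost in 15 of 24 fits that left out 1 array, that of miR-24-3p in 4 and that of miR-23b-3p in 3, with the highest adjusted p at 0.115.

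These male differences ran along with the slides. All 3 control males lay on slide 1 and all 3 males of the 1500 ppm group on slide 2. The single 1000 ppm male on slide 2 had a miR-27a-3p level of 12.14, against 11.86 and 11.91 in the 1000 ppm males of slide 1. Its miR-24-3p level was 12.63, against 12.41 and 12.45 in those males, and its miR-23b-3p level was 12.32, against 12.15 and 12.25. The control females, also on slide 2, had miR-27a-3p levels of 12.12, 12.12 and 12.18 and miR-24-3p levels of 12.61, 12.65 and 12.73. Their miR-23b-3p levels were 12.42, 12.46 and 12.61. In these control females and in the 1000 ppm male of slide 2, all 3 members were above every control male of slide 1. The control females differ from those males in sex as well as slide, and the male of slide 2 is 1 rat at another dose. Slide was entered as a term in the fit below, where it rests on 1 rat. The part of slide in these differences therefore cannot be told apart from that of dose.

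With slide in the fit, the difference between 1500 ppm and control males was 0.08 ± 0.10 (SE, 95% interval -0.13 to 0.29) for miR-27a-3p, 0.05 ± 0.08 (-0.12 to 0.22) for miR-24-3p and 0.14 ± 0.12 (-0.12 to 0.39) for miR-23b-3p, each with a limma adjusted p of 1. The share of all miRNAs called in that comparison with slide in the fit was 0%, and it was 0% for dose within males and 0% for the interaction. The intervals include both no change and, for miR-23b-3p, the difference found without slide in the fit. In this fit the step from slide 1 to slide 2 comes only from the 1000 ppm males, 1 on slide 2 and 2 on slide 1. The slide term thus rests on 1 rat, and these intervals cannot settle the size of the male difference for any member. Dose in males could be compared on slide 1 without crossing slides, but only up to 1000 ppm. There, miR-27a-3p differed from control by 0.11 ± 0.04 (SE, 3 against 3 males, limma adjusted p = 0.763) at 600 ppm and by -0.02 ± 0.04 (2 against 3 males) at 1000 ppm. No member was called in either, with 0% of all miRNAs called at 600 ppm and 0% at 1000 ppm. Among females of slide 3, no member was called between 1000 and 600 ppm, 1500 and 600 ppm or 1500 and 1000 ppm, where 0%, 0% and 0% of miRNAs were called. The largest of these differences was that of miR-23b-3p between 1500 and 600 ppm, -0.15 ± 0.06 (SE, 3 against 2 females, limma adjusted p = 0.400). The effect of 1500 ppm in males and that of the slide cannot be told apart on slides 1 and 2 alone.

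Scaling also mattered for the male comparison. When the percentile was taken over all probes, every log2 difference between 1500 ppm and control males rose by 0.18, and after quantile normalization that of miR-27a-3p was 0.16 (limma adjusted p = 0.0451), that of miR-23b-3p 0.09 and that of miR-24-3p -0.0059, which turned its sign. The difference of miR-23a-3p was then -0.30 (limma adjusted p = 0.00334), past the threshold.

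One member differed between the sexes. Pooled over doses, miR-23b-3p ran from 12.15 to 12.57 in the 12 males (median 12.25) and from 12.34 to 12.61 in the 12 females (median 12.46). The ranges overlapped, and males were lower by -0.16 ± 0.05 in log2 (male minus female, SE, limma adjusted p = 0.0101). The share of all miRNAs called for sex was 43.8%, so 1 of 5 members lay below the background. The difference was 0.02 ± 0.09 with slide in the fit (limma adjusted p = 0.891), when 3.53% of miRNAs were called and no member. On slide 2, which held 4 males and 4 females, it was -0.05 ± 0.07 (limma adjusted p = 0.717). No member was called there, and the share of all miRNAs called was 7.07%. Those males were 1000 and 1500 ppm rats and those females control and 600 ppm rats, so sex and dose cannot be told apart there.

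**Figure D2:**
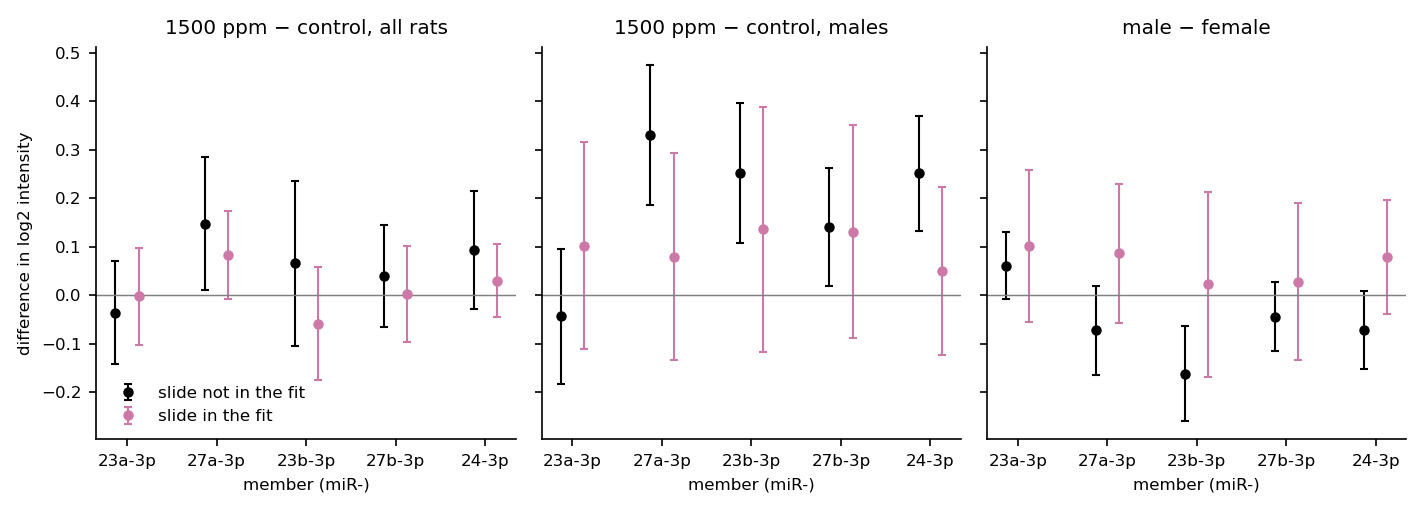
Difference in log2 intensity (vertical axis) for each member (horizontal axis) between 1500 ppm and control in all rats, between 1500 ppm and control in males, and between males and females, with bars for the 95% interval of the limma fit. Black points are from the fit without slide and pink points from the fit with slide as a term, in which every interval includes 0.

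Between slides 3 of the 5 members differed, a share like that of all miRNAs. With dose group but not sex in the fit, the slide difference passed for miR-24-3p (limma adjusted p = 4.96e-05), miR-27a-3p (adjusted p = 0.000124) and miR-23b-3p (adjusted p = 0.000147), and 59.7% of all miRNAs were called. Slide 1 held males only and slide 3 females only. On slide 1 miR-24-3p ran from 12.41 to 12.58 and on slide 2 from 12.61 to 12.75, with no overlap. The range of miR-27a-3p on slide 1, 11.86 to 12.05, also lay below that on slide 2, 12.12 to 12.29. Among males alone, slide 2 (4 rats) exceeded slide 1 (8 rats) by 0.27 ± 0.04 (SE) for miR-27a-3p, 0.22 ± 0.04 for miR-24-3p and 0.20 ± 0.05 for miR-23b-3p, with limma adjusted p of 0.000275, 0.000464 and 0.00705, when 51.2% of all miRNAs were called. Of those 4 males of slide 2, 3 were 1500 ppm rats, and no male of slide 1 was, so slide and dose cannot be told apart in this comparison. Among females, slide 3 and slide 2 differed in no member, and 4.95% of miRNAs were called. The differences there ran from -0.05 ± 0.04 for miR-24-3p to 0.04 ± 0.04 for miR-23a-3p. Control females lay only on slide 2, and females at 1000 and 1500 ppm only on slide 3. Slide and dose therefore cannot be told apart in this comparison of females either. Marker miRNAs of red blood cells also differed between slides 1 and 2. Their summed scaled intensity was taken over miR-451-5p and miR-144-3p, the 2 of 3 listed miRNAs found by that name. It was 2077 to 3149 on slide 1, 1046 to 1865 on slide 2 and 1404 to 2661 on slide 3. The sum of miR-143-3p and miR-145-5p of smooth muscle was 7954 to 9146 on slide 1 and 6601 to 7868 on slide 2, also with no overlap. On slide 3 it was 6848.5 to 8509. The sum of the endothelial pair was 14475 to 17342, 12210 to 15202 and 11889 to 15061 in order of slide. On slide 3 each of these sums overlapped its slide 1 range. For the leukocyte miRNAs (4 of 5 found by name) the sum was 3203 to 4098 on slide 1, 3184 to 4999 on slide 2 and 3809 to 4728 on slide 3. The epithelial sums were 3858 to 4125 on slide 1, 3748 to 4492 on slide 2 and 3781 to 4555 on slide 3. Those of striated muscle were 170 to 571, 128 to 781 and 150 to 1332 in order of slide. The part of these cells in the slide differences was not tested.

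Each member was read by 2 probes with 10 spots each, and the 2 probes did not move alike between slides. The probes of a member are called first and second here in the order of their identifiers. For miR-23a-3p, the first probe (A_26_P00001214) read 12.66 to 12.91 on slide 1, 12.28 to 12.42 on slide 2 and 12.32 to 12.53 on slide 3. Its second probe (A_26_P00002569) read 13.40 to 13.72 on slide 1, 13.60 to 13.77 on slide 2 and 13.58 to 13.80 on slide 3. The first probe thus fell where the second rose, by -0.38 ± 0.04 and 0.19 ± 0.05 in log2 from slide 1 to slide 2 (SE, dose group in the fit, limma adjusted p over 555 probes of 1.70e-08 and 0.00115). The mean of both, which is the level given above, hid these opposite shifts.

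The other members showed the same order with no opposite call. From slide 1 to slide 2 the first and second probes changed by 0.04 and 0.35 for miR-24-3p, 0.11 and 0.33 for miR-27a-3p, 0.10 and 0.39 for miR-23b-3p, and -0.03 and 0.21 for miR-27b-3p. The log2 gap of a member, its second probe minus its first, was larger on slide 2 than on slide 1 in every member. The gap of miR-23a-3p was 0.72 to 0.82 on slide 1, 1.25 to 1.39 on slide 2 and 1.17 to 1.28 on slide 3, so that slide 1 lay apart from both others. In miR-24-3p the gap was 0.00 to 0.05 on slide 1 and 0.29 to 0.36 on slide 2. Between slides 1 and 2 the gap did not overlap in any of the 5 members, and its mean shifted by 0.23 in miR-27a-3p, 0.24 in miR-27b-3p, 0.29 in miR-23b-3p, 0.31 in miR-24-3p and 0.57 in miR-23a-3p. Each had an exact permutation p of 0.000155, the smallest that 8 against 8 arrays allow, and an adjusted p of 0.000494 over 35 tests. In males alone (4 against 8 arrays) the exact permutation p was 0.00202 for each member, again the smallest possible (adjusted p = 0.00393). Between dose groups the gap did not pass in any member, with the smallest exact permutation p at 0.180 for miR-23a-3p at 1500 ppm (adjusted p = 0.289). Such shifts were common on these arrays. They were measured in 183 miRNAs with 2 kept probes that were above background throughout. From slide 1 to slide 2 the median size of the shift was 0.32. The shift was above 0.2 in 120 of the 183, among them all 5 members. That of miR-23a-3p ranked 41st from the largest, while those of the other members ranked from 96th to 114th. How many of the 183 had no overlap between the slides was not counted.

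**Figure D3:**
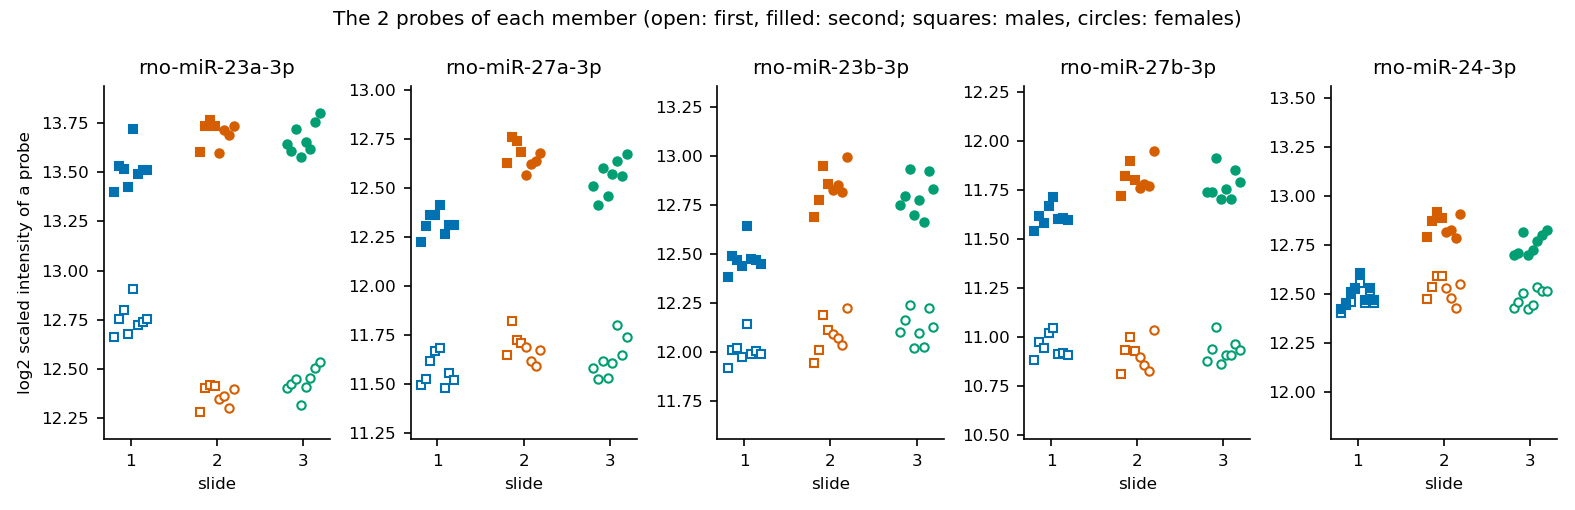
Log2 scaled intensity of the first (open) and second (filled) probe of each member (vertical axis, which does not start at 0) on the 3 slides (horizontal axis), 1 point per rat, squares for males and circles for females. The gap between the 2 probes of miR-23a-3p is 0.72 to 0.82 on slide 1 and 1.25 to 1.39 on slide 2.

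Read by single probes, 8 of the 10 member probes passed the slide difference, with 62.3% of 555 probes called. For 1500 ppm against control in males, 7 of 10 member probes passed, with 42.7% of all probes called. The 2 probes of miR-23a-3p then gave opposite calls, -0.33 ± 0.09 for the first and 0.24 ± 0.07 for the second (SE, 3 against 3 rats, limma adjusted p of 0.00644 and 0.00992). Those of miR-24-3p gave 0.10 ± 0.05 and 0.40 ± 0.07, of which only the second passed (limma adjusted p of 0.123 and 0.000419). For miR-27a-3p both passed, at 0.23 ± 0.07 and 0.43 ± 0.08 (limma adjusted p of 0.00740 and 0.000479). For miR-23b-3p only the second passed, at 0.11 ± 0.07 and 0.40 ± 0.08 (limma adjusted p of 0.207 and 0.000813). The same held for miR-27b-3p, at 0.04 ± 0.06 and 0.24 ± 0.06 (limma adjusted p of 0.655 and 0.00531). The spots of a probe agreed closely within an array, with a median SD between spots of 0.04 to 0.10 in log2 over the 10 probes.

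In the ratio of paralogs within an array the scale factor of that array cancels. The log2 ratio of miR-23a-3p over miR-23b-3p had medians of 0.73 in control, 0.77 at 600 ppm, 0.61 at 1000 ppm and 0.59 at 1500 ppm. Its control range of 0.45 to 0.91 spanned most of the others, and at 1500 ppm it was 0.52 to 0.69. The difference from control at 1500 ppm was -0.10 (6 against 6 rats, exact permutation p = 0.245, adjusted p = 0.734 over 6 tests). For miR-27a-3p over miR-27b-3p the medians were 0.68, 0.71, 0.64 and 0.81 in order of dose. The control range was 0.62 to 0.82 and the 1500 ppm range 0.71 to 0.91, which overlapped, and the difference was 0.11 (two-sided exact permutation p = 0.0498, adjusted p = 0.299). No ratio passed at any dose, and the smallest p that 6 against 6 rats allow is 0.00216.

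By slide, the same ratios separated. The log2 ratio of miR-23a-3p over miR-23b-3p was 0.85 to 0.92 on slide 1, 0.45 to 0.68 on slide 2 and 0.50 to 0.69 on slide 3. Slide 1 thus lay above both other slides with no overlap, by 0.33 over slide 2 (8 against 8 arrays, exact permutation p = 0.000155, adjusted p = 0.000777 over 10 tests). The slide difference was called in 59.7% of all miRNAs. How many other ratios of miRNAs separated by slide in this way was not counted. The ratio averages probes that moved unequally, and the shift of 0.57 between the 2 probes of miR-23a-3p was larger than this shift of the ratio. Whether the 2 loci changed unequally was therefore not tested. Within slide 1 the males at 600 and 1000 ppm differed from its control males by 0.00 in this ratio (exact permutation p of 0.9 and 0.9, where 0.1 is the smallest p possible). For miR-27a-3p over miR-27b-3p slide 1 lay below slide 2, by -0.15 (exact permutation p = 0.000311, adjusted p = 0.00104). These slide comparisons were added after the data had been seen.

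**Figure D4:**
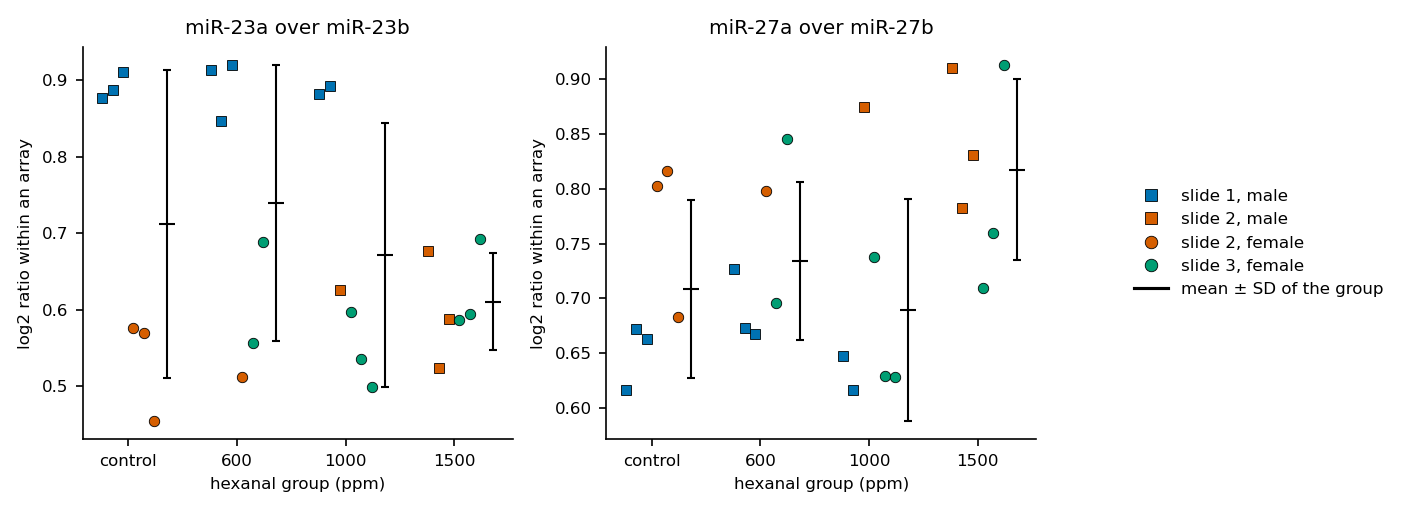
Log2 ratio within an array (vertical axis, which does not start at 0) of miR-23a-3p over miR-23b-3p and of miR-27a-3p over miR-27b-3p in the 4 groups (horizontal axis), 1 point per rat, coloured by slide, with the mean ± SD of 6 rats. All 8 arrays of slide 1 have a miR-23a over miR-23b ratio between 0.85 and 0.92, above the other 16 arrays.

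Whether the members varied together among rats was asked over the 24 arrays, in 10 pairs. All 5 levels of an array share 1 scale factor. Among the 4 members other than miR-23a-3p, all 6 pairs correlated after adjustment over the 10 pairs. These calls depended on the scaling and on the probe. After quantile normalization none of the 6 pairs passed, and the r of miR-23b-3p with miR-24-3p turned to -0.401 (permutation, adjusted p = 0.13), while by the brightest probe of each member all 10 pairs passed. The closest pair was miR-27a-3p and miR-24-3p (Pearson r = 0.928, Spearman rho = 0.920, both permutation p = 1e-05, the smallest the draws can give, and adjusted p of 3.33e-05 and 5e-05). Without the 2 arrays farthest from the median its r was 0.905, and within slides 1, 2 and 3 it was 0.878, 0.698 and 0.795. The pair of miR-23b-3p and miR-27b-3p, neighbours in 1 cluster, had r = 0.847 (rho = 0.815, permutation p of 1e-05 and 2e-05, adjusted p of 3.33e-05 and 6.67e-05) and r of 0.773, 0.877 and 0.916 within the slides. Without the 2 farthest arrays it was 0.879. For miR-27a-3p and miR-23b-3p, members of different clusters, the pooled r of 0.683 (rho = 0.603, permutation p of 0.00028 and 0.00207, adjusted p of 0.00056 and 0.00345) was 0.679 within slide 1 but 0.151 and -0.0050 within slides 2 and 3, and 0.588 without the 2 farthest arrays. After centring each slide on its mean it was 0.213 (permutation within slides, p = 0.341), so this relation did not hold within slides 2 and 3. The remaining 3 pairs of these members had pooled r of 0.629 to 0.846 (rho of 0.642 to 0.814) and stayed past the threshold after centring (permutation, largest adjusted p = 0.0269).

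The member miR-23a-3p, as the mean of its 2 probes, gave no such pooled relation. Pooled over slides its r with the other 4 members lay between -0.150 and 0.198 (rho between -0.133 and 0.150), with permutation p of 0.352 or more and no call. By the brightest probe of each member these pooled r were 0.849 with miR-27a-3p, 0.860 with miR-24-3p, 0.891 with miR-23b-3p and 0.866 with miR-27b-3p (permutation, adjusted p = 1e-05 for each). With the percentile over all probes r was 0.527 with miR-27a-3p and 0.503 with miR-24-3p. The lack of a pooled relation thus held for the mean of probes that shifted in opposite directions. Within slides its r with miR-24-3p was 0.665, 0.818 and 0.841, and after centring on slides it was 0.748 (permutation within slides, p = 7e-05, adjusted p = 0.000175). Its centred r was 0.737 with miR-23b-3p, 0.644 with miR-27b-3p and 0.628 with miR-27a-3p (adjusted permutation p of 0.0002, 0.00108 and 0.00184). For the mean of both probes, the relations were thus present within slides and not over all arrays. The 2 probes of miR-23a-3p themselves correlated at r = -0.480 over the 24 arrays and at 0.893 after centring on slides. For the other members the 2 probes correlated at r of 0.345 to 0.807 over all arrays and 0.84 to 0.97 after centring. These last values describe probes that share arrays and carry no test. As background, the median r of a member with all 282 other miRNAs tested was -0.00887 to 0.257 over all arrays and 0.0974 to 0.245 after centring.

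**Figure D5:**
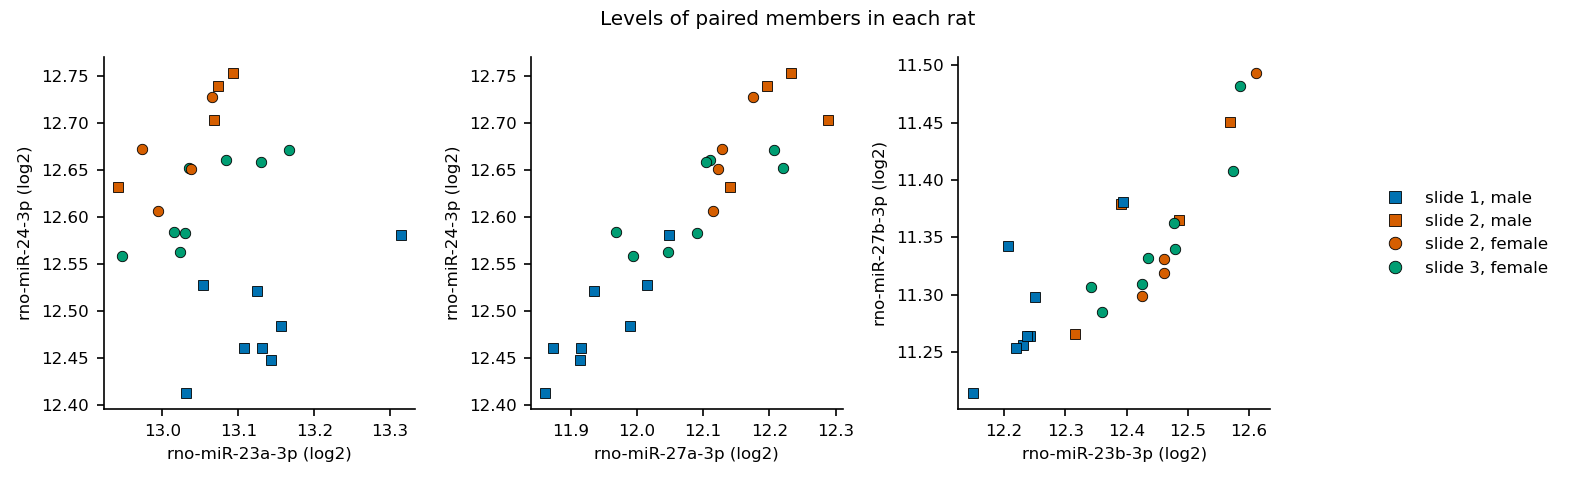
Log2 scaled intensity of 2 members in each of the 24 rats, with miR-23a-3p against miR-24-3p, miR-27a-3p against miR-24-3p and miR-23b-3p against miR-27b-3p, coloured by slide, with squares for males and circles for females. In the first panel the points of each slide rise together (r of 0.665, 0.818 and 0.841) but slide 1 is set off from the rest, and the pooled r is -0.150.

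Outside the clusters, the miRNAs whose levels were most like those of a member were named by the highest Pearson r over the 24 arrays. For miR-23a-3p these were miR-107-3p (r = 0.862) and miR-30b-5p (0.834). For miR-27a-3p they were let-7i-5p (0.916) and let-7c-5p (0.874), and for miR-24-3p let-7i-5p (0.959) and miR-151-5p (0.949). For miR-23b-3p they were miR-361-5p (0.901) and miR-103-3p (0.897), and for miR-27b-3p miR-219-5p (0.785) and let-7a-5p (0.754). After centring on slides these r values were 0.632 to 0.841. They are descriptions over arrays that share slides and scaling.

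Of the other products of the same hairpins, 7 were on the array and 2 were tested. The 5p arms miR-23b-5p, miR-27a-5p, miR-27b-5p and miR-24-1-5p, and miR-3074, which lies on the strand opposite Mir24-1, were not above background on any array. The arm miR-23a-5p was above background on 17 of 24 arrays. The arm miR-24-2-5p was so on 24, and it is shown because it comes from the same hairpin as miR-24-3p of chromosome 19, at chr19:40859517-40859538 (minus strand, GRCr8).
rno-miR-24-2-5p: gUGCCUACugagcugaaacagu

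The tested other arms moved in different directions between slides. From slide 1 to slide 2, miR-24-2-5p changed by -0.61 ± 0.04 and miR-24-3p by 0.20 ± 0.03 in log2 (SE, dose group in the fit, limma adjusted p of 2.03e-11 and 1.25e-05). The value of miR-24-3p holds both loci, so the arms of Mir24-2 alone cannot be compared. Over the same slides miR-23a-5p, from 1 kept probe, changed by 0.33 ± 0.09 (limma adjusted p = 0.00524). Between 1500 ppm and control males, which lay on those slides, miR-24-2-5p differed by -0.51 ± 0.11 (limma adjusted p = 0.00122) and miR-23a-5p by 0.40 ± 0.17 (limma adjusted p = 0.0673), which did not pass. Over all rats at 1500 ppm neither passed, with -0.18 ± 0.16 for miR-24-2-5p and 0.15 ± 0.12 for miR-23a-5p (limma adjusted p of 0.613 and 0.594).

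The members were set beside miRNAs with related roles. Of 7 vascular miRNAs (such as miR-126a, miR-221 and miR-143), all were tested and none was called at 1500 ppm over all rats, with a median log2 difference of -0.09 against 0.00 over all miRNAs tested. In males at 1500 ppm, 4 of the 7 were lower and none higher, with a median of -0.29 against 0.04, in the comparison in which 36% of all miRNAs were called and which crosses slides. Of 5 tested miRNAs of lipid and glucose metabolism, such as miR-33 and miR-122, none was called at 1500 ppm over all rats (median -0.04), and in males 2 were higher and 1 lower (median 0.05). With slide in the fit no miRNA was called in either comparison.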

How the data were processed

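Scanner output (Agilent Feature Extraction 11.5.1.1, build rn4 in its header) was deposited for every array, together with a table of intensity values for the series in which 58.7% of values equal the lowest one. Processed spot intensity, as deposited, had its background corrected and was on a linear scale. The paper linked to the series describes other array types, so none of its methods were applied. Control and outlier-flagged spots were left out. Intensities were divided by the 75th percentile of each array over 394 probes above background on all 24 arrays, multiplied by 865, floored at 11.3 and put on the log2 scale. Probes above background on at least 6 arrays were kept (555 probes, 283 miRNAs), and kept probes were averaged to give a miRNA's level. Tests used limma 3.58.1 (lmFit, eBayes; R 4.3.3, data.table version 1.17.8) with Benjamini-Hochberg adjustment at 0.05, all two-sided, after a check on simulated data. Ratios and gaps between probes were tested by exact permutation, and correlations by 100000 permutations (Python 3.11.15, numpy 2.4.6, scipy 1.17.1, pandas 2.3.3, matplotlib 3.10.9). Alternatives were other scalings, filters, probe choices and background corrections, the series table, slide as a fixed or random block, sex as a covariate, and leaving out each array. Members, lists and named genes were chosen with earlier results of these data known. The named genes were the members, the other arms of their hairpins, miR-3074, and the 2 most like miRNAs of each member. Fits of single probes, within slides and in males at 1500 ppm were added after the data were seen. Each array is 1 rat.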

Additional observations from a re-analysis of the deposited data

Results flagged for a closer look

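One group of values held a rat far from the others. Among the 6 control rats, 1 female of slide 2 had a miR-27b-3p level of 11.49, against 11.28 ± 0.03 (SD) in the other 5, and the gap below it was 0.726 of the range of the group, above Dixon's critical value for 6 rats. Of 28 groups of values checked in this way (5 members and 2 ratios in 4 dose groups) this was the only one, where chance gives about 1.4.

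For 3 members the effects of dose differed between males and females in the limma interaction test. The F statistic was 6.70 for miR-23b-3p (adjusted p = 0.0199), 6.16 for miR-24-3p (adjusted p = 0.0228) and 5.06 for miR-27a-3p (adjusted p = 0.0426). With slide in the fit the adjusted p was 0.786, 0.898 and 0.909.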

How the results depend on the processing

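The members' dose comparisons over all rats stayed without a call in all 260 values from the other settings and all 600 from fits without 1 array. The miRNAs called for the dose trend were 3 with sex as a covariate and 0 to 2 without 1 array (2 without control female 22 or 23). Those called for sex (124) numbered 77 with no filter on dim probes, 5 with normexp correction, 10 with slide as a block, 0 as a random block and 20 on slide 2 alone, and miR-23b-3p turned to 0.0228 with slide as a block. Interaction calls (71) numbered 18 in the series table and 0 with normexp, slide as a block or a random block, and ranged from 34 (without 1500 ppm male 18) to 102, with 45 without 1500 ppm female 36. Calls in males (100) numbered 66 in the series table, 0 with normexp, 0 and 1 with slide as a block and random block, and 59 (without 1500 ppm male 18) to 116 without 1 array. At 1500 ppm in males (102) they numbered 7 with normexp, 0 with the block and 2 with the random block, miR-23a-3p turned to 0.24 by its brightest probe, and miR-24-3p to -0.00585 by quantile normalization. In females (0) there was 1 call with the percentile over all probes, 1 with no filter, and 0 to 5 without 1 array (5 without 1500 ppm female 37, 2 without 600 ppm female 26 or 1000 ppm female 33, 1 without 1500 ppm female 36). Slide calls (169) fell to 52 with normexp. Of 10 pairs of members, 6 correlated, against 1 after quantile normalization, where miR-23b-3p with miR-24-3p turned to -0.401, and 10 by the brightest probe. The r of miR-23a-3p turned positive with miR-27a-3p at 0.527 (percentile over all probes), 0.849 (brightest probe), 0.436 (normexp) and 0.628 (slide-centred), with miR-24-3p at 0.503, 0.860, 0.531 and 0.748 in these settings and 0.472 in the series table, and with miR-23b-3p at 0.891 (brightest probe) and 0.737 (slide-centred). A further 87 uncalled values changed sign without a call. The cause of these changes was not tested. No paired analysis was possible because the rat numbers in the labels are not shared between groups. Differences under about 0.1 in log2 lie within the intervals of these 6 against 6 rats. For miR-23b-3p, with an SE of 0.08 at 1500 ppm against 0.05 for miR-23a-3p, larger differences do so too.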
